A study of Mus musculus with 2 samples.

Results

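The 10 genes described here belong to the cytotoxic lymphocyte program and were followed in cells sorted as tumour-associated neutrophils (TANs) from Lewis lung carcinoma tumours. They are Gzma, Gzmb, Prf1, Nkg7, Ccl5, Ifng, Klrk1, Klrd1, Klrb1c and Ncr1, taken by symbol from the 31053 genes of the deposited count matrix, and each of the 10 has exactly 1 entry there. Lewis lung carcinoma (LLC) is a transplantable mouse lung tumour line, and here it was grown under the skin of C57BL/6 mice (C57BL/6 J in the methods of the study) aged 8 to 12 weeks. The Smad3-WT mice were Smad3+/+ and the Smad3-KO mice were Smad3-/-, an allele in which exon 8 was deleted and exon 7 disrupted. For each genotype, 8 tumours were pooled, CD11b+Ly6G+ cells were sorted by flow cytometry, and a single droplet library was made with a 5′ kit. With 1 library per genotype there is no replicate, so no difference between genotypes was tested, and the genotype cannot be told apart from anything else that differed between the libraries. The intervals given are exact and cover counting error at the 95% level only. Tags near the 5′ end of Smad3 lie outside the deleted part and do not check the genotype.

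Cytotoxic T cells and natural killer (NK) cells kill by releasing granules. Perforin, the product of Prf1, opens the membrane of the target cell, and granzymes pass in and cleave proteins that start cell death. Receptors of the killer lectin family and NKp46 (Ncr1) read stress and MHC ligands on the target, while interferon-γ (Ifng) and the chemokine Ccl5 carry the response to other cells. In mice these genes are used mainly by activated CD8 T cells and NK cells, although Ccl5 and some receptors are also made by activated myeloid cells. A sort on CD11b and Ly6G is meant to leave T and NK cells out.

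The 4 promoters below are printed because they hold the letters TGTGGTT (or AACCACA on the other strand), the core bound by RUNX factors, which are known regulators of killer genes. Promoters were taken from RefSeq (GRCm38.p6) and run from 250 bases before to 50 after the start of the gene in that table, 5′ to 3′ along the gene. That start is the same as the gene start of the annotation used below for Gzma and Klrk1, and lies 74 bases upstream of it for Gzmb and 9 bases upstream for Ncr1. Capitals mark the RUNX letters and, in Gzmb and Klrk1, the AP-1 letters TGANTCA.
Gzmb, chr14:56262285-56262584, minus strand: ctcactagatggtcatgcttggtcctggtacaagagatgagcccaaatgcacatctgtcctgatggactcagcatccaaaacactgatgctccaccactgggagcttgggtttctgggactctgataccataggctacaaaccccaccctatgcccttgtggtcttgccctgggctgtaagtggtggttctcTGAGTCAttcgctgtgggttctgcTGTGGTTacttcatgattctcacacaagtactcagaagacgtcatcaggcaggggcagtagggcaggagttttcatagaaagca
Gzma, chr13:113100932-113101231, minus strand: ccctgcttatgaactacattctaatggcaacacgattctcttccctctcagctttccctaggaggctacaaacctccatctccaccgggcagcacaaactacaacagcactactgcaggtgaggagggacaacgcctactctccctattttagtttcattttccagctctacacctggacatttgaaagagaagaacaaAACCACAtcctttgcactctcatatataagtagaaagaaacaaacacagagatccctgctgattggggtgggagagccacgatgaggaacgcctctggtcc
Klrk1, chr6:129623815-129624114, minus strand: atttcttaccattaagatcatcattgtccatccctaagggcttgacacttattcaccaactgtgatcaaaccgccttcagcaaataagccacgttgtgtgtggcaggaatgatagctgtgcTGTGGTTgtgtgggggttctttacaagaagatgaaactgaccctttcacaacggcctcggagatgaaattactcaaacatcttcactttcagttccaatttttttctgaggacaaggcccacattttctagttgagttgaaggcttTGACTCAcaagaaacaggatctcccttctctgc
Ncr1, chr7:4337465-4337764, plus strand: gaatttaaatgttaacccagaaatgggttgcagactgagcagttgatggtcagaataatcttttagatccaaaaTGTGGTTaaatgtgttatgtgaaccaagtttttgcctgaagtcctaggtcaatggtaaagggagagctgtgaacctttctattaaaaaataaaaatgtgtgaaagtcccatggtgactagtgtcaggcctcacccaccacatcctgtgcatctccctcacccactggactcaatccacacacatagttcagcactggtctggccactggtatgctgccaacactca
The RUNX letters stood 34 bases before the start in Gzmb, 51 bases before it in Gzma (opposite strand), 129 bases before it in Klrk1 and 176 bases before it in Ncr1. They were present in 4 of the 8 members with a listed promoter and in 5.27% of 32851 mouse promoters of the same length. The AP-1 letters were present in 2 of 8 members, 58 bases before the start of Gzmb and 18 bases after that of Klrk1, and in 7.81% of all promoters. The T-box letters GGTGTGA were found in Nkg7 alone, 13 bases before its start, and in 3.98% of all promoters. The palindrome GTCTAGAC, which holds the SMAD core on both strands, was in 0 of 8 members and in 0.213% of all promoters. These matches describe the letters in a short window and say nothing of binding. Both strands were read, and no RUNX match overlapped an AP-1 match.

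After filtering, 3520 Smad3-WT cells with 12176201 unique molecular identifiers (UMIs, the counted molecules) and 2433 Smad3-KO cells with 4146792 UMIs were kept, with median depths of 1318.5 and 1199 UMIs per cell. Above the upper UMI limit lay 382 barcodes of Smad3-WT and 0 of Smad3-KO. Cells were clustered without the 10 genes and named from fixed markers, so that no gene chose the class in which it was measured. The label of the sort held for part of the cells only: neutrophil-like cells were 52.4% of the Smad3-WT and 44.6% of the Smad3-KO library. Cells with T or NK markers were 55 (1.56%) of the Smad3-WT and 465 (19.1%) of the Smad3-KO cells. B cell-like cells numbered 3 and 570, macrophage or monocyte-like cells 1143 and 180, and dendritic-like cells 29 and 41. The T or NK-like cells were split into CD8 T-like (21 and 123 cells with a Cd8a or Cd8b1 UMI), other T-like (21 and 325 cells with a CD3 or Trac UMI) and NK-marker cells (12 and 3 cells with neither and at least 2 UMIs of NK markers). A further 1 and 14 cells passed none of these gates and count only in the T or NK-like totals. They held 25 (Smad3-WT) and 9 (Smad3-KO) UMIs of the 10 genes. Names rebuilt in this way may differ from those of the study. The libraries shared 73 barcode sequences, 24 of them among the kept cells.

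Summed over all kept cells, the 10 genes stood higher in the Smad3-KO library, but nearly all of that excess was Ccl5. The sum was 369.7 CPM (UMIs scaled to 1000000 UMIs of the same cells) in Smad3-WT, from 4501 UMIs, and 1284 CPM in Smad3-KO, from 5325 UMIs, a ratio of 3.47 (3.34 to 3.62). Without Ccl5 the sums were 141 and 177 CPM and the ratio was 1.25 (1.15 to 1.37). Leaving out barcode sequences found in both libraries gave a ratio of 3.70 for the 10 genes. Taken singly, 3 members were at least 2-fold higher in Smad3-KO (Gzma, Ccl5 and Ncr1) and 1 at least 2-fold lower (Ifng), where 16.3% and 15.4% of all 12612 genes with at least 20 UMIs passed the same folds. The median ratio was 0.877 over the members and 0.979 over all those genes.

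Gene by gene, Ccl5, a chemokine that draws in T cells and monocytes, was at 228 CPM in Smad3-WT and 1107 CPM in Smad3-KO, a ratio of 4.85 (4.62 to 5.08). Gzma, which encodes granzyme A, was at 23.6 and 48.7 CPM (ratio 2.07, 1.72 to 2.48), and Nkg7, a granule membrane protein needed for degranulation, at 33.0 and 61.5 CPM (ratio 1.86, 1.59 to 2.18). Gzmb, which encodes granzyme B, went the other way, with 18.5 CPM in Smad3-WT and 12.3 CPM in Smad3-KO (ratio 0.666, 0.481 to 0.905). For the other members the interval of the ratio held 1, so that neither direction could be read at this depth: Prf1 (0.895), Ifng (0.435), Klrk1 (0.768), Klrd1 (0.858), Klrb1c (0.562) and Ncr1 (2.26). Without any filter the direction for Gzmb turned, to a ratio of 1.49. All filters were dropped together there, and which of them mattered was not tested. The Smad3-WT barcodes that had been left out held 11775199 UMIs, 4 of them Gzmb, and those of Smad3-KO held 67498 UMIs, of which 9 were Gzmb, all in 1 barcode.

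The T or NK-like cells gave a different picture from the whole libraries. Within them, all 10 genes stood at a lower level in the Smad3-KO library, and every interval lay below 1. The sum of the 10 was 8498 CPM in the 55 Smad3-WT cells and 1717 CPM in the 465 Smad3-KO cells, a ratio of 0.202 (0.188 to 0.217). It was 0.161 (0.145 to 0.178) without Ccl5 and 0.218 without the shared barcode sequences. Of the 9 members with at least 20 UMIs there, 9 were at least 2-fold lower in Smad3-KO, where 11.8% of all 5800 genes were (13.1% were at least 2-fold higher). Their median ratio was 0.174, beside 0.957 for all genes. The Smad3-KO library held more T or NK-like cells, while the T or NK-like cells of the Smad3-WT library had more of these transcripts for their depth.

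**Figure D1:**
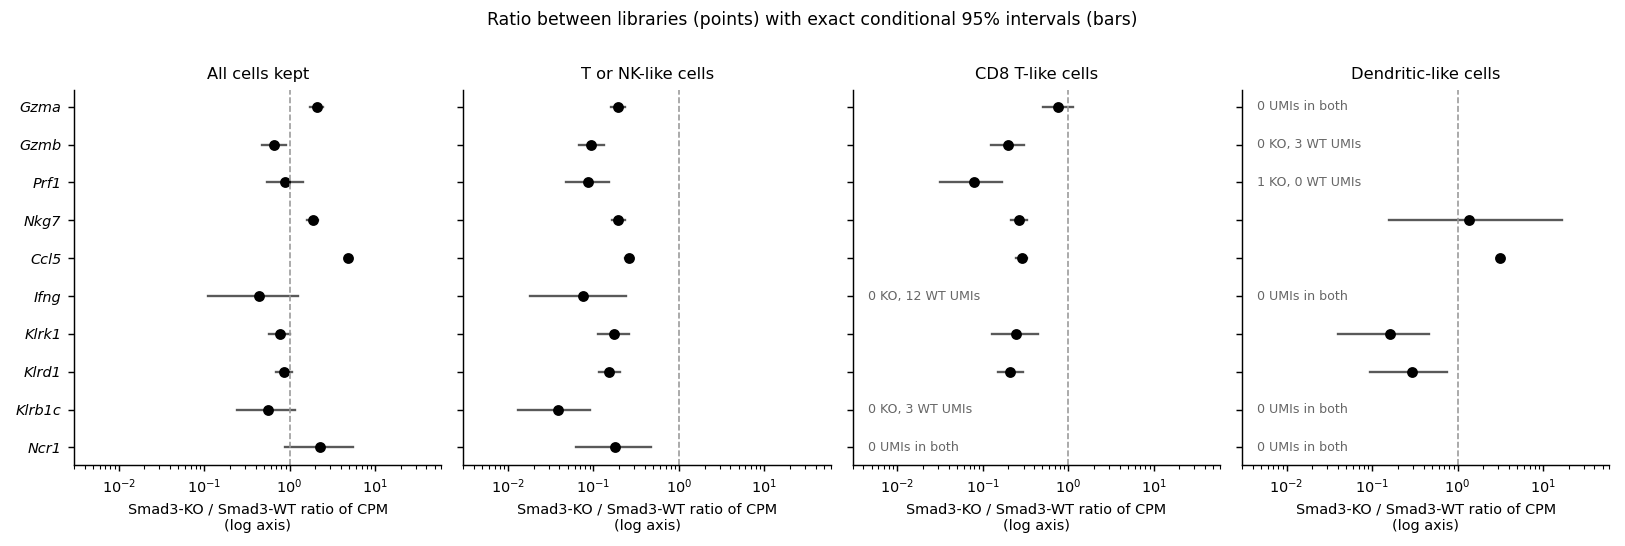
Ratio of the CPM in Smad3-KO to that in Smad3-WT for each of the 10 genes (log axis), in all cells and within cell classes, with exact conditional 95% intervals as bars and a dashed line at 1. In all cells Ccl5 lay at 4.85 and Gzmb at 0.666, whereas in T or NK-like cells all points lay below 1, between 0.0381 (Klrb1c) and 0.259 (Ccl5).

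Several other measures moved with this difference, and their part in it was not tested. T or NK-like cells had a median depth of 2899 UMIs (Smad3-WT) and 1357 UMIs (Smad3-KO). The 9 T cell markers, all detected in both libraries, summed to 3742 and 5322 CPM, and the CD8 pair Cd8a and Cd8b1 to 753 and 453 CPM. The 9 NK markers (9 detected in Smad3-WT, 8 in Smad3-KO) summed to 616 and 154 CPM. Among markers of cells that should not be in this class, the 10 macrophage or monocyte markers (10 detected in each) summed to 1980.0 and 822 CPM, the 8 neutrophil markers (8 detected in each) to 2667 and 3475 CPM, the 7 B cell markers (3 and 7 detected) to 147 and 373 CPM, and the 8 dendritic markers (5 and 4 detected) to 171 and 30.3 CPM. No doublet caller was run. After cells holding at least 2 markers of another class were left out, 26 Smad3-WT and 374 Smad3-KO T or NK-like cells remained and the ratio of the 10 genes was 0.136.

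The granule genes came first by role. Gzma lies on the minus strand of chromosome 13 (GRCm38, chr13:113093825-113100981) and encodes a trypsin-like granzyme. In T or NK-like cells the Smad3-WT library had 280 UMIs (1326 CPM) and the Smad3-KO library 201 (254 CPM), a ratio of 0.192 (0.159 to 0.231). Very few cells carried it. The 201 Smad3-KO UMIs came from 7 cells, of which the highest had 88 and the top 5 held 194, and the 280 Smad3-WT UMIs came from 13 cells, with 48 in the highest. For that reason the counting interval is narrower than the spread between cells. With every cell given the same weight, the direction for Gzma over all kept cells turned, to a ratio of 0.622. The share of T or NK-like cells with a Gzma UMI was 23.6% in Smad3-WT and 1.51% in Smad3-KO.

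Gzmb (chr14:56258838-56262260, minus strand) encodes the granzyme that cleaves caspases in the target. Many Smad3-WT cells carried it, with 141 UMIs (668 CPM) in 30 of 55 cells against 50 UMIs (63.2 CPM) in 13 of 465 Smad3-KO cells, a ratio of 0.0947 (0.0671 to 0.132). The shares were 54.5% and 2.80% of the cells, and 25.5% and 1.29% when every cell was thinned to 500 UMIs. Prf1 (chr10:61297833-61304680, plus strand), encoding perforin, had 52 UMIs (246 CPM) in 15 Smad3-WT cells, up to 12 in a cell. In Smad3-KO it had 17 UMIs (21.5 CPM), 1 in each of 17 cells, and the ratio was 0.0873 (0.0473 to 0.153). Thinning left shares of 5.45% and 0.215% of cells with Prf1, the latter at the level of a single UMI. Nkg7 (chr7:43437073-43438249, plus strand) was the most widely detected of the 10 in both libraries, with shares of 65.5% (Smad3-WT) and 20.6% (Smad3-KO). Its 303 and 223 UMIs gave 1435 and 282 CPM and a ratio of 0.196 (0.165 to 0.234).

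**Figure D2:**
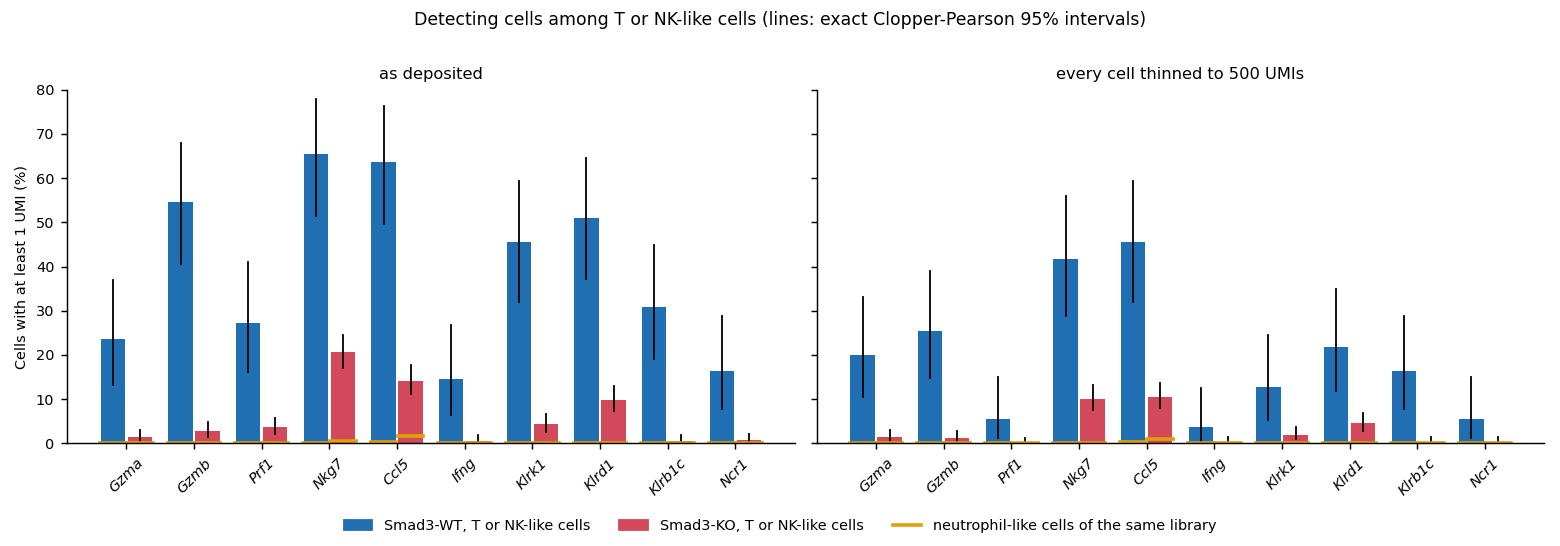
Percentage of T or NK-like cells with at least 1 UMI of each of the 10 genes, as deposited and after thinning every cell to 500 UMIs, with exact Clopper-Pearson 95% intervals and, as yellow lines, the share in neutrophil-like cells of the same library. Bars for Gzmb reach 54.5% (Smad3-WT) and 2.80% (Smad3-KO) as deposited, and 25.5% and 1.29% after thinning.

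The secreted factors followed. Ifng (chr10:118441046-118445892, plus strand) encodes interferon-γ, which activates macrophages and raises MHC expression, and it was sparse in both libraries. Smad3-WT had 14 UMIs (66.3 CPM) in 8 T or NK-like cells, against 4 (5.06 CPM) in 3 Smad3-KO cells, a ratio of 0.0763 (0.0183 to 0.243). In the annotation a predicted gene on the same strand overlaps Ifng, so reads could have been split between them. Ccl5 (chr11:83525778-83530518, minus strand) was counted 750 times (3553 CPM) in 35 Smad3-WT cells and 729 times (922 CPM) in 66 Smad3-KO cells, and its ratio of 0.259 (0.234 to 0.288) was opposite in direction to that over all kept cells.

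The receptors were read last. Klrk1 (chr6:129610323-129623864, minus strand) encodes NKG2D, which binds stress ligands. Its 60 UMIs (284 CPM) lay in 25 cells of Smad3-WT, and its 39 (49.3 CPM) in 20 cells of Smad3-KO, a ratio of 0.174 (0.113 to 0.264). Klrd1 (chr6:129591782-129598775, plus strand) encodes CD94, the partner of the NKG2 chains. Its values were 140 UMIs (663 CPM) in 28 cells and 81 UMIs (102 CPM) in 46 cells, with a ratio of 0.154 (0.116 to 0.204). Klrb1c (chr6:128778485-128789215, minus strand) encodes NK1.1, the marker of NK cells in C57BL/6 mice, and showed the lowest ratio of the 10, 0.0381 (0.0132 to 0.0902), from 42 UMIs (199 CPM) in 17 cells of Smad3-WT against 6 (7.59 CPM) in 3 cells of Smad3-KO. A predicted gene on the same strand overlaps Klrb1c too. Ncr1 (chr7:4337724-4345164, plus strand), encoding the activating receptor NKp46, had 12 UMIs (56.8 CPM) in 9 cells and 8 UMIs (10.1 CPM) in 4 cells, a ratio of 0.178 (0.0631 to 0.473). The NK-marker cells, 12 of 55 (Smad3-WT) and 3 of 465 (Smad3-KO), held 27 and 6 of the Klrb1c UMIs and 11 and 5 of the Ncr1 UMIs. Within NK-marker cells the ratios were 1.38 (0.465 to 3.41) for Klrb1c and 2.82 (0.768 to 8.80) for Ncr1. The part of this unlike mix of cells was not tested.

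Splitting the class by CD8, CD3 and NK markers showed where these values lay. In CD8 T-like cells the 10 genes summed to 8870.4 CPM in Smad3-WT and 2411 CPM in Smad3-KO, a ratio of 0.272 (0.245 to 0.301). Of the 7 members with at least 20 UMIs there, 6 were at least 2-fold lower in Smad3-KO, beside 15.0% of 2492 genes, with a median ratio of 0.242 against 0.891. Prf1 was at 382 and 29.9 CPM (ratio 0.0783, 0.0316 to 0.170) and Gzmb at 646 and 127 CPM (ratio 0.197, 0.126 to 0.302), in 52.4% and 5.69% of the cells. Nkg7 was in 95.2% of the 21 Smad3-WT cells and 52.0% of the 123 Smad3-KO cells, and Klrd1 in 76.2% and 26.8%. Gzma was the exception, at 392 and 295 CPM with an interval that held 1 (0.754, 0.509 to 1.13), and it came from 2 cells in each library. Smad3-WT had 12 Ifng UMIs here against 0 in Smad3-KO, at least 10.5-fold lower against a floor of 3 UMIs, and Ncr1 had 0 in both. The CD8 markers stood at 1557 and 1338 CPM, but a UMI of them chose these cells, so that level is partly set by the gate. The T cell markers stood at 5316 and 4834 CPM. Median depths were 4020 and 1699 UMIs, and their part in the result was not tested.

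In other T-like cells, Gzma was at 953 and 216 CPM (ratio 0.226, from 2 and 3 cells) and Gzmb at 363 and 18.3 CPM (ratio 0.0505). Nkg7 was at 295 and 122 CPM (ratio 0.413) and Ccl5 at 1611 and 679 CPM (ratio 0.422). The intervals of these ratios lay below 1, but the share of all genes that stood lower in this class was not worked out. Marker sums differed widely between the libraries, and their part was not tested: the 10 macrophage or monocyte markers (10 detected in each) summed to 3397 CPM in Smad3-WT, above the 9 T cell markers at 2981 CPM, and to 492 CPM in Smad3-KO, where the T cell markers were at 5821 CPM. Smad3-WT had 11 Klrb1c UMIs against 0 in Smad3-KO, at least 24.2-fold lower. The intervals of the remaining members held 1.

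NK-marker cells were few, 12 and 3, and there the libraries did not part in the same way. Klrb1c, which took no part in choosing these cells, had a UMI in all of them, 12 of 12 (Smad3-WT) and 3 of 3 (Smad3-KO). Levels were 4732 and 2954 CPM for Gzma, 1399 and 1292 CPM for Gzmb, 804 and 1108 CPM for Klrb1c and 327 and 923 CPM for Ncr1. Only for Ccl5 (6845 and 16802 CPM, ratio 2.45, 1.90 to 3.14) did the interval leave out 1. Of its 91 Smad3-KO UMIs, 61 came from 1 of the 3 cells, and the interval does not cover that spread. Without Ccl5 the sum of the other members had a ratio of 0.932 (0.689 to 1.24). The sum of the neutrophil markers was 6220.4 CPM for the Smad3-WT cells, with 7 of 8 detected, and 0 for the Smad3-KO cells, and that of the NK markers was 2500.1 and 4985 CPM. Their part was not tested. Of the 12 Smad3-WT cells, 5 remained when cells holding at least 2 markers of another class were left out. With 3 cells in Smad3-KO, differences of severalfold in either direction lie within the intervals.

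**Figure D3:**
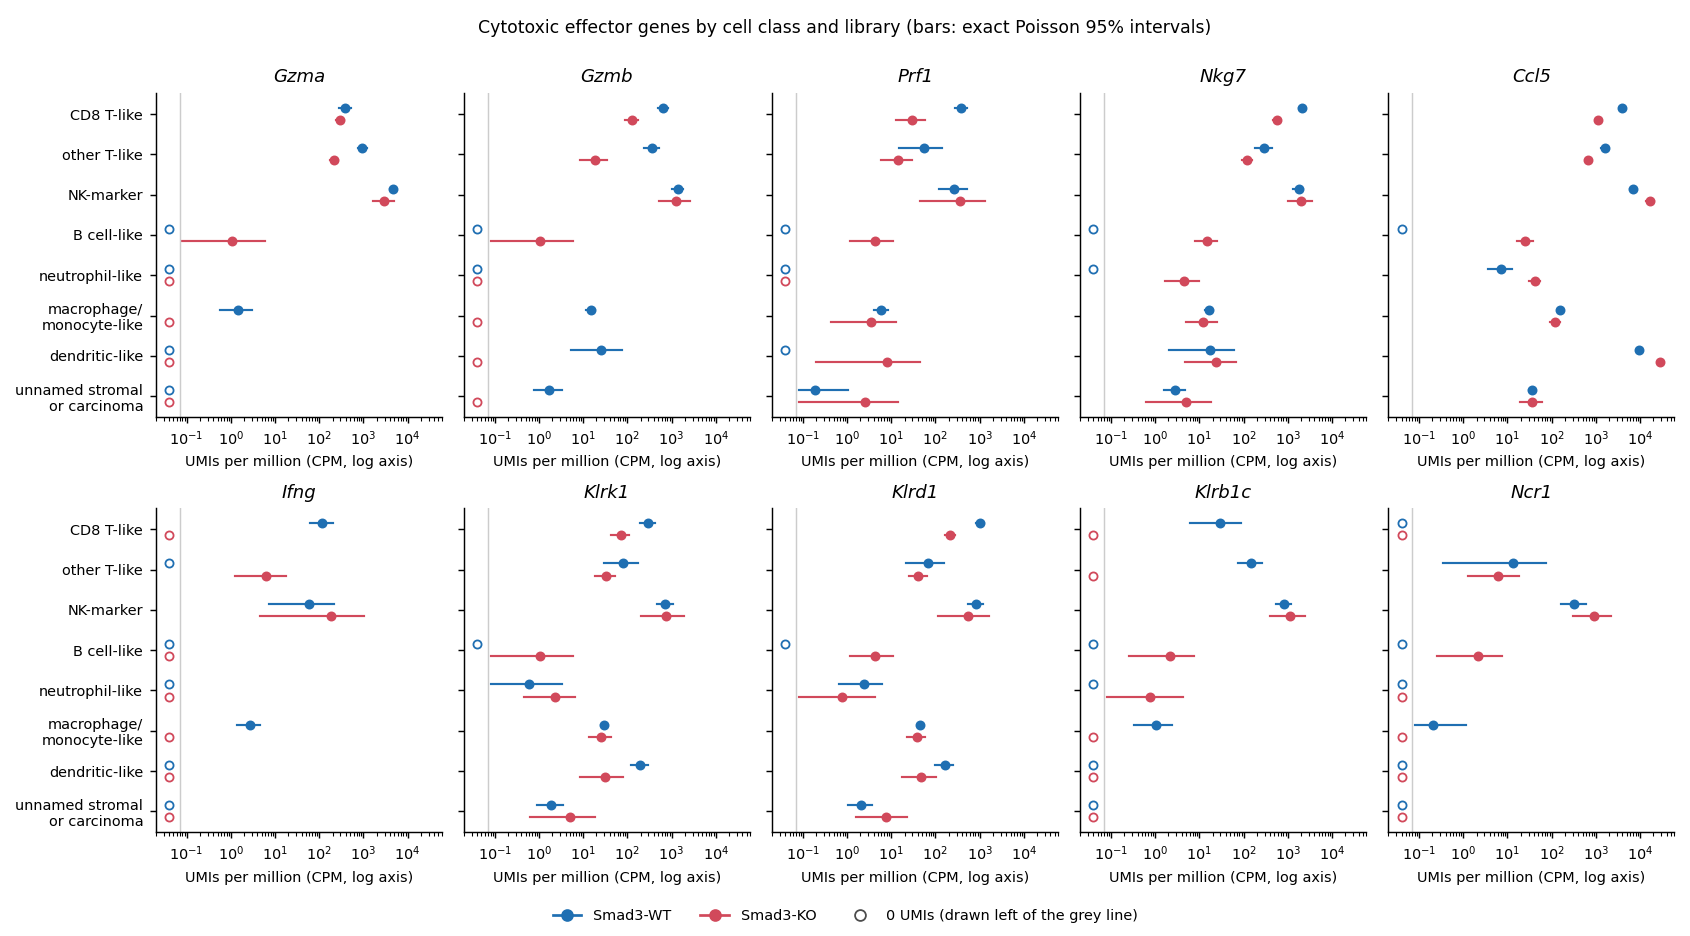
Level of each gene in CPM (log axis) in 8 cell classes of the Smad3-WT (blue) and Smad3-KO (red) libraries, with exact Poisson 95% intervals and open circles for 0 UMIs. T and NK classes hold the highest level of 9 of the 10 genes in each library, and dendritic-like cells hold that of Ccl5 (9279.9 and 28961 CPM).

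Among all classes, 9 of the 10 genes were highest in a T or NK class in each library, and Ccl5 was highest in dendritic-like cells in both. For Gzma, Gzmb, Klrk1, Klrb1c and Ncr1 the NK-marker cells came first, with intervals apart from the second class in both libraries. In Smad3-KO this order rests on 3 cells, and the intervals do not cover the spread between them. The 7 Gzmb UMIs came from 1 of those cells and so did the 4 of Klrk1. The 16 of Gzma and the 5 of Ncr1 came from 2 cells each, and the 6 of Klrb1c from 3. For Prf1, Ifng, Nkg7 and Klrd1 the CD8 T-like cells came first in Smad3-WT, but their intervals overlapped those of the NK-marker cells, so these neighbours were not apart. Against all other cells, 9 of the 9 members tested were at least 2-fold higher in T or NK-like cells of Smad3-WT, where 16.3% of 11674 genes were, and 6 of 7 in Smad3-KO, where 16.0% of 9995 genes were. The exception in Smad3-KO was Ccl5, with a ratio of 0.801, against 20.9 in Smad3-WT. Gzma had the highest of these ratios in both libraries, 2267 and 853.

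Classes that should lack the genes showed the background. In neutrophil-like cells (median depths of 741.5 and 1015 UMIs) Gzma, Gzmb, Prf1, Ifng and Ncr1 had 0 UMIs in both libraries. That is 0 of 1846 and 0 of 1084 cells, which allows shares of cells with a UMI of up to 0.163% and 0.277% by the limit of 3 counts, which is not an exact interval. Nkg7 was found in 0 and 6 of these cells. The share of neutrophil-like cells with at least 1 of the 10 genes was 0.542% for Smad3-WT and 2.40% for Smad3-KO, and it was 3.51% for the 570 Smad3-KO B cell-like cells (median depth 1243 UMIs). Among those B cell-like cells Gzma and Gzmb had 1 UMI each, Prf1 4 and Nkg7 14. In Smad3-KO, the share of T or NK-like cells with Klrb1c (0.645%) lay close to that of B cell-like cells (0.351%), but its 3 cells were the 3 NK-marker cells, and it had 0 UMIs in CD8 T-like and other T-like cells.

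Ccl5 had a different distribution from the other 9 genes. In dendritic-like cells 1088 UMIs came from 25 of 29 Smad3-WT cells (median 20, highest 129) and 3700 from 39 of 41 Smad3-KO cells (median 41, highest 480). The levels were 9279.9 and 28961 CPM, a ratio of 3.12 (2.92 to 3.34). These cells carried Fscn1 (3454 and 3694 CPM), the actin-bundling protein of mature dendritic cells, Ccl22 (2004 and 1338 CPM) and the homing receptor Ccr7 (2098 and 986 CPM, named after its values were seen). Of the 8 fixed dendritic markers, 4 met the naming rule in their cluster. Flt3 was at 162 and 204 CPM and Zbtb46 at 136 and 78.3 CPM. Xcr1 had 0 UMIs in both libraries, Clec9a 5 and 0, and Cd209a 0 and 4. CD3 transcripts were few, with 2 and 7 UMIs of Cd3e, 1 and 6 of Cd3g and 2 and 2 of Trac, but they were not evenly placed. Cells with a CD3 or Trac UMI numbered 1 of 29 (Smad3-WT) and 7 of 41 (Smad3-KO), and held 39 and 1028 of the Ccl5 UMIs. Without those cells, an alternative added after seeing the data, Ccl5 was at 10014 and 27259 CPM and the ratio was 2.72 (2.53 to 2.93). The 9 T cell markers (7 and 6 detected) summed to 102 and 243 CPM and the 9 NK markers (3 and 1 detected) to 68.2 and 7.83 CPM. In Smad3-WT the 8 neutrophil markers (8 detected) summed to 6695 CPM, with a UMI in 17 of the 29 cells. That lay above the 8 dendritic markers (5 detected) at 5799.9 CPM, while the 10 macrophage or monocyte markers (8 detected) were at 384 CPM. The part of these markers in the Ccl5 values was not tested. Of all UMIs of the 10 genes, 25.2% (Smad3-WT) and 69.7% (Smad3-KO) lay in dendritic-like cells, and 39.9% and 25.5% in T or NK-like cells. Without Ccl5, T or NK-like cells held 60.7% and 85.6%. In neutrophil-like cells Ccl5 was at 7.14 CPM in Smad3-WT (12 UMIs in 7 cells) and at 41.5 CPM in Smad3-KO (55 UMIs in 17 cells), of which the top 5 held 43. The ratio was 5.81 (3.08 to 11.9). Different clusters made up this class in each library: 1826 of the 1846 Smad3-WT cells were in a cluster led by G0s2 and Il1r2, while 831 of the 1084 Smad3-KO cells were in a cluster led by Il1a and Tnfaip3 and 65 in a cluster led by Ngp and Camp. At the finer clustering 51 of the Smad3-KO UMIs lay in the Il1a-led cluster, which had 16 Smad3-WT cells, whereas an interferon-gene cluster (Ifit3, Ifit1) had 10 Ccl5 UMIs in 364 Smad3-WT cells and 0 in 68 Smad3-KO cells.

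Several members were also found in myeloid classes, among them the receptors Klrk1 and Klrd1 and, in Smad3-WT, Gzmb. In macrophage or monocyte-like cells Klrk1 was counted 147 times in 96 Smad3-WT cells and 14 times in 12 Smad3-KO cells (ratio 0.828, 0.442 to 1.43), and Klrd1 had 223 in 80 and 21 in 18 (ratio 0.819, 0.497 to 1.28). At a finer clustering 62.6% and 73.1% of the Smad3-WT UMIs of Klrk1 and Klrd1 fell in 1 cluster, led by Mgl2 and H2-Eb1. That cluster met the naming rule with 4 macrophage or monocyte markers and 3 dendritic markers, and Cd209a was among its leading genes. Its name as macrophage or monocyte is therefore not firm. For Gzmb, 72 UMIs in 12 Smad3-WT cells of this class stood against 0 in Smad3-KO. Of the 72, 69 lay in 9 cells that also had a CD3 or Trac UMI, and 69.4% in 6 cells that joined the T cell cluster at the finer clustering. Smad3-WT cells of this class also held 82 Nkg7 UMIs in 19 cells, 29 of Prf1 in 8, 13 of Ifng in 4 and 745 of Ccl5 in 85. Cells with a CD3 or Trac UMI held 72, 28, 13 and 251 of these. The 13 Ifng UMIs stood beside 27 in all kept Smad3-WT cells. In Smad3-KO this class held 7 UMIs of Nkg7, 2 of Prf1, 0 of Ifng and 68 of Ccl5. Dendritic-like cells had Klrk1 at 196 and 31.3 CPM (ratio 0.160, 0.0401 to 0.467) and Klrd1 at 162 and 47.0 CPM (ratio 0.290, 0.0947 to 0.755).

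The genes were detected together far more often in Smad3-WT T or NK-like cells. At least 1 of the 10 had a UMI in 87.3% of Smad3-WT cells (75.5% to 94.7%) and 30.5% of Smad3-KO cells (26.4% to 34.9%). At least 3 were seen in 65.5% (51.4% to 77.8%) and 6.88% (4.75% to 9.58%). After thinning every cell to 500 UMIs the shares with at least 3 were 34.5% and 2.80%. The pair Gzmb and Prf1, granzyme and pore, was seen together in 10 of 55 Smad3-WT cells and 3 of 465 Smad3-KO cells (18.2% and 0.645%). Nkg7 and Ccl5 were seen together in 50.9% and 8.82% of the cells. In CD8 T-like cells at least 3 genes were found in 19 of 21 Smad3-WT cells and 18 of 123 Smad3-KO cells. The cell with the most had all 10 genes in each library.

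**Figure D4:**
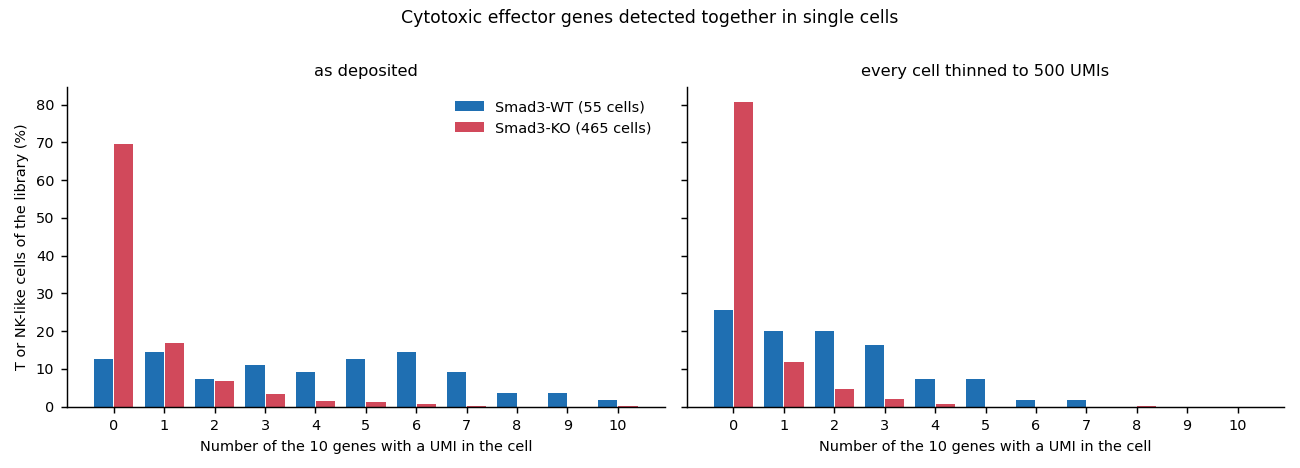
Share of the T or NK-like cells of each library (55 Smad3-WT, 465 Smad3-KO) by how many of the 10 genes had a UMI, as deposited and after thinning every cell to 500 UMIs. As deposited, 69.5% of Smad3-KO cells had none, and 65.5% of Smad3-WT against 6.88% of Smad3-KO cells had at least 3.

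Cells of the T or NK class were clustered again, still without the 10 genes, and a sub-cluster was led by cell cycle genes (Pclaf, Birc5, Cdk1, Top2a). This split was chosen after the values were seen. The sub-cluster held 24 of 55 Smad3-WT and 18 of 465 Smad3-KO cells, with median depths of 3116 and 2692 UMIs, and it had the most NK markers although 15 and 14 of its cells had a CD3 or Trac UMI. Its Smad3-KO cells held 96.5% of the Gzma UMIs of the Smad3-KO T or NK-like cells. Within it Gzma was at 1383 CPM in Smad3-WT and 2114 CPM in Smad3-KO (ratio 1.53, 1.23 to 1.91), but the 194 Smad3-KO UMIs came from 5 cells. Without the Smad3-KO cell with the most, which had 88, the direction turned and the interval held 1 (1279 CPM, ratio 0.925). When the cell with the most was left out of each library, the direction did not turn. Gzma was then at 1051 CPM in Smad3-WT and 1279 CPM in Smad3-KO, and the interval again held 1 (ratio 1.22, 0.923 to 1.60). The intervals of Gzmb (572 and 403 CPM, ratio 0.705, 0.455 to 1.08) and Ncr1 (ratio 0.889, 0.281 to 2.68) held 1. Prf1 (439 and 32.7 CPM, ratio 0.0745), Nkg7 (1926 and 610.1 CPM, ratio 0.317) and Ccl5 (4414 and 2179 CPM, ratio 0.494) stayed below 1. In the other T or NK-like cells (31 and 447) Gzma was at 1271 and 10.0 CPM and Gzmb at 762 and 18.6 CPM, with ratios of 0.00788 and 0.0244. Of the 135 Smad3-WT Gzma UMIs there, 122 came from 3 cells of a sub-cluster led by S100a8 and S100a9. That sub-cluster held 15 of the 31 Smad3-WT cells and 46 of their 81 Gzmb UMIs, in 6 cells. Its part in these ratios was not tested. The sum of the 10 genes had a ratio of 0.572 (0.516 to 0.635) in the cell cycle sub-cluster and 0.177 (0.160 to 0.197) outside it.

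Other genes of the pathway were read in T or NK-like cells from lists chosen by function, with at least 20 UMIs as the minimum and a fold of 2 as the call. Beside them stand the median of 0.957 over all genes and the backgrounds of 13.1% higher and 11.8% lower in Smad3-KO. Of 13 granule biogenesis and release genes tested, 2 were higher and 6 lower (median 0.542). The 2 higher, named for that count, were Unc13d (0.994 to 6.59) and Rab27a (0.770 to 12.8), whose intervals held 1. Srgn, the proteoglycan that packs granzymes, was at 2037 CPM in Smad3-WT and 893 CPM in Smad3-KO (ratio 0.438, 0.388 to 0.495), and Ctsw, a protease of killer cells, at 313 and 105 CPM (ratio 0.336, 0.240 to 0.471). The values of Lamp1 and Ctsc were 303 and 164 CPM and 185 and 106 CPM. Myeloid classes stood higher for 3 of these genes. Srgn was at 14086 and 10362 CPM in neutrophil-like cells. In macrophage or monocyte-like cells Ctsc was at 1197 and 377 CPM and Lamp1 at 1099 and 697 CPM. Within CD8 T-like cells Srgn was at 999 and 729 CPM, Ctsw at 372 and 213 CPM, Lamp1 at 206 and 172 CPM and Ctsc at 108 and 123 CPM. Of the 8 other granzymes only Gzmf reached 20 UMIs, 56 against 0 in Smad3-KO. Gzmm had 1 and 14 UMIs (4.74 and 17.7 CPM), Gzmk 4 and 8 (18.9 and 10.1 CPM) and Gzme 8 and 0 (37.9 and 0 CPM). The intervals of the ratio held 1 for Gzmm (0.569 to 158) and Gzmk (0.143 to 2.42). Of 4 death ligands and cytokines tested, 2 were lower, Fasl and Tnfsf10 (ratio 0.415, 0.167 to 1.09). Fasl was at 56.8 and 11.4 CPM (interval of the ratio 0.0745 to 0.518), whereas the intervals of Tnf, Lta and Tnfsf10 held 1. Of 3 lymphocyte chemokines, 2 were lower, Ccl4 at 786 and 325 CPM and Xcl1 at 213 and 11.4 CPM, while Ccl3 was at 322 and 325 CPM. Neutrophil-like cells had Ccl4 at 8822 and 11322 CPM, Ccl3 at 7473 and 10480.0 CPM and Xcl1 at 0 in both libraries. The part of myeloid transcripts in these values was not tested.

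Partners of the receptors varied among themselves. Of 13 partners and other NK receptors tested, 9 were lower and 0 higher (median 0.205). Tyrobp, the adaptor DAP12, was at 1511 and 278 CPM (ratio 0.184, 0.154 to 0.219) and Fcer1g at 1061 and 346 CPM (ratio 0.327, 0.273 to 0.391), and myeloid cells also express both. Hcst, the adaptor DAP10 through which NKG2D signals, was at 535 and 472 CPM with an interval that held 1 (0.881, 0.712 to 1.10), and Cd247, the zeta chain of the T cell receptor, stood higher in Smad3-KO, short of the 2-fold limit (161 and 263 CPM, ratio 1.63, 1.13 to 2.42). Of 7 transcription factors tested, 1 was at least 2-fold lower. This was Tbx21, named for that count, at 37.9 and 15.2 CPM (8 and 12 UMIs), and the interval of its ratio held 1 (0.151 to 1.13). Id2, at 464 and 233 CPM (ratio 0.501), fell just short of the limit, and the intervals of Runx3 (0.826), Batf (0.650) and Tox (1.38) held 1. Of 3 genes tested from a list of NK receptor ligands, Clec2i was higher (18.9 and 53.1 CPM). That rests on 4 and 42 UMIs, with an interval of the ratio of 1.02 to 10.8. H2-T23, the source of the Qa-1 ligand of the CD94 receptor, was lower (317 and 143 CPM). Of 5 receptors of the secreted factors, 3 were lower, among them Ifngr1 at 488 and 161 CPM and Ccr1 at 99.5 and 41.7 CPM.

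Genes of naive and memory T cells and genes of checkpoint receptors stood on opposite sides. Of 6 naive and memory T cell genes tested, 5 were higher in Smad3-KO and 0 lower (median 3.99). Lef1, a transcription factor of naive T cells, was at 61.6 CPM in Smad3-WT and 489 CPM in Smad3-KO (ratio 7.95, 4.59 to 15.1), Tcf7 at 42.6 and 253 CPM (ratio 5.93) and the interleukin-7 receptor Il7r at 99.5 and 272 CPM (ratio 2.73). Of 4 checkpoint receptors tested, 4 were lower (median 0.132). Pdcd1, encoding PD-1, was at 204 and 20.2 CPM (ratio 0.0993, 0.0522 to 0.180), Lag3 at 194 and 27.8 CPM, Tigit at 242 and 29.1 CPM and Ctla4 at 204 and 83.5 CPM. Within CD8 T-like cells the values were 17.6 for Lef1, 5.25 for Tcf7, 5.27 for Il7r, 0.0742 for Pdcd1 and 0.0955 for Lag3, each as the Smad3-KO to Smad3-WT ratio. Ctla4 there had 2 and 7 UMIs and an interval that held 1 (1.34, 0.254 to 13.2). These lists were read on the same cells, so they share the depth and marker differences given above.

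The deposited averages over 13 clusters of the authors, made from cells of both libraries before the filter, gave the same genes a second map. Cluster 9, in which Cd3e (1092 CPM) and Cd3g (799.8 CPM) had their highest level of the 13, had the highest level of 9 of the 10 genes. The share of all genes that were highest in it was not worked out. Levels in cluster 9 were 493 CPM for Gzma, 213 CPM for Gzmb, 74.5 CPM for Prf1, 569 CPM for Nkg7, 99.3 CPM for Klrk1 and 250.4 CPM for Klrd1. The second cluster was far behind for Gzma (cluster 5, 24.7 CPM) and Nkg7 (cluster 7, 23.3 CPM), with intervals that did not overlap. For Klrk1 the interval of cluster 9 (79.6 to 122) overlapped that of cluster 13 (55.5 CPM, 36.9 to 80.2), so these 2 were not apart. Cluster 9 held 87.8% of the Gzma UMIs and 65.4% of those of Gzmb. For Klrk1 the most UMIs, 37.7%, lay in cluster 7, in which C1qb was at 2155 CPM. Ccl5 was highest in cluster 13, at 9594 CPM and with 64.0% of its UMIs, ahead of cluster 9 (1579 CPM) and cluster 12 (334 CPM). Cluster 13 also had Fscn1 at 1786 CPM and Ccl22 at 842 CPM. Markers of other cells were present in it too, with S100a9 at 3708 CPM, Ngp at 815 CPM and Cd8a at 137 CPM. Siglech, a marker of plasmacytoid dendritic cells, was at 244 CPM there, its highest level of the 13 clusters.

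**Figure D5:**
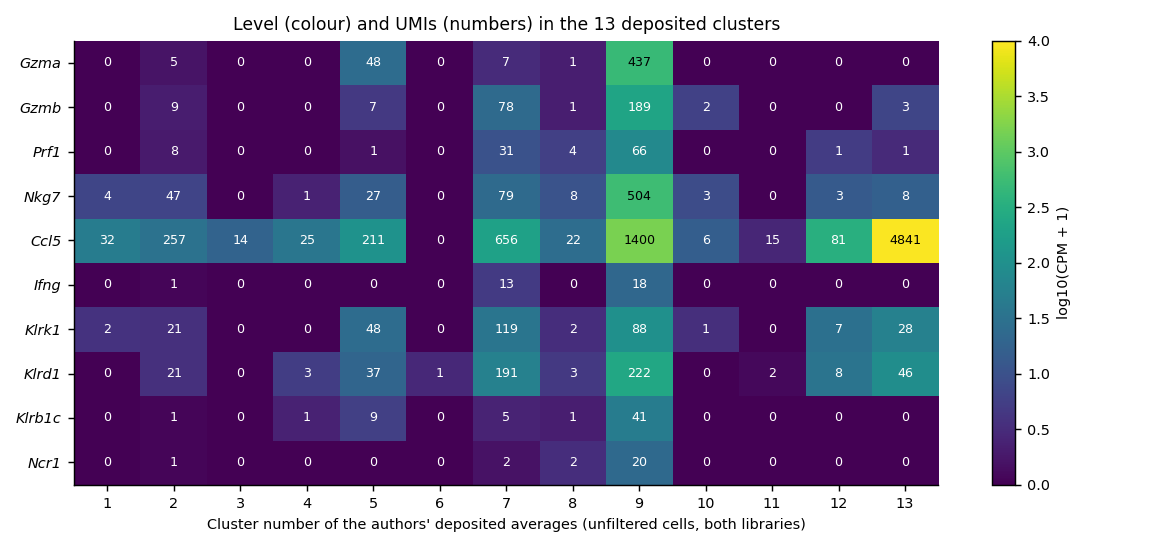
Level of each gene, as log10(CPM + 1) in colour, and its UMIs, as numbers, in the 13 clusters deposited by the authors. Cluster 9 holds the highest level of each gene but Ccl5, which is highest in cluster 13, with 4841 UMIs.

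Over these 13 clusters the genes whose profile was most like the mean profile of the 10 were Il2rb (r = 0.96), the interleukin-2 receptor chain of T and NK cells, Cd8b1 (0.95), the protease inhibitor Cst7 (0.95), Ms4a4b (0.95) and the CD3 chain Cd3g (0.94), among 9063 genes with at least 200 UMIs. The 13 points share libraries and depth, so r is given as a description.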

How the data were processed

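The counts deposited by the authors, UMIs per gene and cell, came from Cell Ranger (3.0.2 per the file headers) on mm10 per the submitters' processing notes. The authors also deposited averages per cluster, used as a score per 1311 UMIs, and averages per genotype, a signal used only to tie barcode suffixes to libraries (largest difference 4.91e-09 and 3.58e-08, against 31.8 if swapped). Their log2 fold changes and p-values between clusters were not used. From the cluster averages, UMIs were recovered as whole multiples.

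A cell was kept with 200 genes or more, mitochondrial UMIs under 10%, and a total over 500 and under 20000 UMIs. Without the 10 genes, 2000 variable genes, 100 principal components and 15 neighbours gave Louvain clusters at resolution 0.2 (seed 1). A cluster was named from at least 3 markers, each detected in 10% of its cells and at 2 times the level elsewhere. Leading genes did not enter this rule. The cluster it named carcinoma was led by Col3a1 and Col1a1, and is given as unnamed stromal or carcinoma. The sub-cluster it named NK was led by cell cycle genes, and is described by those. UMIs were summed per class and library and divided by the class total. Poisson, Clopper-Pearson and conditional binomial intervals at 95% were exact and treat UMIs as independent, although few cells held many of them. The scripts were tested on simulated data. Named genes were the 10 members, from each list the 4 with the most UMIs in T or NK-like cells (ligands over all cells), and the 5 most like the members, by r of log2(average + 0.01). Members and lists were chosen with earlier results of these data known. Gene positions came from GENCODE on GRCm38. Alternatives were filters, totals, thinning, clustering settings, gates and cells left out. A few named genes of the lists are not reported here. Cd244a was not in the table under that symbol. Scripts used Python 3.11.15 with scanpy 1.11.5, igraph 0.11.9, scipy 1.17.1, numpy 2.4.6, pandas 2.3.3 and matplotlib 3.10.9.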

Additional observations from a re-analysis of the deposited data

Results flagged for a closer look

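The Smad3-KO to Smad3-WT ratio of Ccl5 had no single direction across classes. It was 5.81 in neutrophil-like and 3.12 in dendritic-like cells, and 0.259 in T or NK-like cells as a whole. NK-marker cells had 2.45, where 1 of the 3 Smad3-KO cells held 61 of the 91 UMIs. Macrophage or monocyte-like cells had 0.794 (0.610 to 1.02). With 1 library per genotype the difference between these classes was not tested. The neutrophil-like value rests on few cells too, since the top 5 cells held 43 of the 55 Smad3-KO UMIs.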

How the results depend on the processing

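No paired analysis was possible because each genotype had 1 library. The Smad3-KO to Smad3-WT ratio of the 10 genes over all cells was 6.51 without a quality filter, 6.49 with a looser filter (at least 500 UMIs, up to 20% mitochondrial), 3.33 with totals free of mitochondrial and ribosomal protein genes and 2.12 as a mean over cells. In alternatives chosen after seeing the data it was 3.70 without shared barcode sequences, 3.13 without the 2 cells with the most UMIs in each library and 1.25 without Ccl5. In T or NK-like cells the ratio was 0.227 and 0.235 under those filters, 0.232 with those totals, 0.122 as a mean over cells, 0.140 after thinning, 0.230 at resolution 1.0, 0.235 with the members kept in the clustering, 0.136 without mixed cells, 0.218 without shared barcode sequences and 0.161 without Ccl5. It was below 1 for each of the 10 members in 13 of 13 settings. Of the Smad3-WT UMIs of the 10 genes, T or NK-like cells held 43.0% and 43.8% under those filters. They held 45.8% at resolution 1.0 and 46.5% with members in the clustering. Of the member UMIs without Ccl5, they held 60.7% in Smad3-WT and 85.6% in Smad3-KO. T or NK-like cells with a member UMI were 74.5% and 19.4% after thinning, and 20.4% in Smad3-KO at 2 UMIs. Over all cells 3 ratios of single genes turned direction, Gzmb to 1.49 and 1.26 under those filters and Gzma to 0.622 as a mean over cells. The cause was not tested. Median-of-ratios scaling shifted all genes by -0.03 (all cells) and -0.07 (T or NK-like cells) on the log2 scale. Depth limits Ifng, Ncr1 and the 3 Smad3-KO NK-marker cells.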
